A study of Mus musculus with 6 samples.

Results

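The cytosolic heat shock genes are 8 of the 55450 genes in the table, taken by symbol: Hspa1a, Hspa1b, Hspa8, Hsph1, Dnajb1, Bag3, Hsp90aa1 and Hspb1. They were measured in RNA of whole retina from C57BL/6 mice aged 8 weeks, in 3 libraries named Myrf-kd and 3 libraries of wild-type (WT) mice. The series describes the Myrf-kd mice as Myrf +/−, and all 6 libraries share strain, age and tissue. Myrf is the gene of a transcription factor that oligodendrocytes need to make myelin. The labels say neither how the Myrf gene was altered nor whether each library is a separate animal. The p-values therefore cover only the spread among these libraries, part of which may be technical.

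Heat shock proteins of the cytosol are chaperones that bind unfolded protein chains. HSP70 proteins take up chains with the help of J-domain partners, release them with the help of nucleotide exchange factors, and pass some of them on to HSP90. When unfolded protein builds up, as after heat, low oxygen or tissue handling, heat shock factor 1 (HSF1) forms trimers, binds inverted repeats of the bases GAA upstream of these genes and raises their transcription. In retina the constitutive members serve cells with a high turnover of protein, photoreceptors among them.

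The library totals ran from 50695091 units in WT 2 to 70298511 units in WT 3, with about 4 units for each sequenced fragment. Rod genes marked all 6 libraries as retina, with the transducin gene Gnat1 between 2926 and 3329 FPKM (fragments per kilobase of transcript, scaled to library size). On the first principal component of log2 CPM (counts scaled to a common library size with TMM factors; 28.9% of the variance) Myrf-kd 3 lay at 43.8, apart from the rest, with the other 5 libraries between −17.3 and 10.8. Xist reached 1449 CPM in Myrf-kd 3, against 1238 CPM in WT 3, and stayed at 8.16 CPM or less elsewhere, so the libraries numbered 3 came from females. The targeted gene Myrf was at 0.279, 0.382 and 0.351 FPKM in Myrf-kd 1, 2 and 3, against 0.359, 0.397 and 0.463 FPKM in WT 1, 2 and 3, and did not pass the test (edgeR adjusted p = 0.732). An altered copy may still give reads in such a total, so this does not check the labels. In RNA of whole retina, fewer cells of a type and less RNA per cell cannot be told apart.

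Hspa1a (ENSMUSG00000091971, chromosome 17, 34969190 to 34972156, minus strand, GRCm38) and Hspa1b (ENSMUSG00000090877, chromosome 17, 34956436 to 34959238, minus strand) encode the stress-inducible HSP70. They are intronless copies that lie 9951 bases apart. Their coding sequences were 99.6% identical, with 8 differences in 1926 aligned bases, against 74.5% identity between Hspa1a and Hspa8, the constitutive relative. Of all 50-base windows of the Hspa1a transcript, 58.8% also occur unchanged in the Hspa1b transcript, and 82.3% do so within the coding sequence. The sources used here do not say how the authors divided reads that fit both genes, so the split between these genes is uncertain and their sum is given beside them. The 250 bases before each start, from the RefSeq promoter table for GRCm38.p6, are shown because they differ between the copies at only 3 positions, with the motif GAANNTTC in capitals. The Hspa1a window is chr17:34972157-34972406 and the Hspa1b window chr17:34959239-34959488, both on the minus strand and written 5′ to 3′.
Hspa1a: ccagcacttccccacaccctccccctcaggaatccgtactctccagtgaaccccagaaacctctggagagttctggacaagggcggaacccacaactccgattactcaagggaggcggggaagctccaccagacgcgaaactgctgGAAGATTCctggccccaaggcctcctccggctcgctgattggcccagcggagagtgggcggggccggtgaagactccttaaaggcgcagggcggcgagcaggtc
Hspa1b: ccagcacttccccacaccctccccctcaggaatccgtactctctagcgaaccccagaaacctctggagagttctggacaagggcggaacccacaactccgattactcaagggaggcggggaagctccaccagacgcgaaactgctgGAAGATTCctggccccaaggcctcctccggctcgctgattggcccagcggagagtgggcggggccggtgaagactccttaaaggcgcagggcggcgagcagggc
Dnajb1, a J-domain gene whose level ran close to that of the pair, has no match in the corresponding window, chr8:83607925-83608174 on the plus strand.
Dnajb1: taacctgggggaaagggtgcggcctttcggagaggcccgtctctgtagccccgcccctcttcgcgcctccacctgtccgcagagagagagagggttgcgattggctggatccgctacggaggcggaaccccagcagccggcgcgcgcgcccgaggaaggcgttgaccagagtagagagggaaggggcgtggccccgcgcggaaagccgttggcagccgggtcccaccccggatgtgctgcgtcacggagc

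The motifs searched were GAANNTTC and TTCNNGAA, the inverted repeats of the HSF1 site, each of which reads the same on both strands. At least 1 of them was found in 4 of the 6 heat shock genes in the promoter table, Hspa1a, Hspa1b, Hsph1 and Hspb1, against 12.9% of all 32544 distinct windows of the same length. The windows of Hspa1a and Hspa1b are near copies, so their matches to any motif here are not separate. The genes were chosen as HSF1-driven, so this comparison is not a test of them. The pair has GAANNTTC with its first base 104 bases before the start. For Hsph1 and Hspb1 a stretch of 30 bases that holds each match is shown, with the motif in capitals, to set them beside the pair. Distances are counted from the RefSeq start to the first base of the motif. The Hsph1 stretch is chr5:149636351-149636380 on the minus strand, and its motif begins 33 bases before the RefSeq start at 149636336. The first base of Hsph1 in the deposited table is 149636376, so by that annotation the motif lies within the gene. The Hspb1 stretches are chr5:135887791-135887820 and chr5:135887811-135887840 on the plus strand, with motifs 117 and 97 bases before the start, which is the same in both annotations.
Hsph1: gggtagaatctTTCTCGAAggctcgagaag
Hspb1, first match: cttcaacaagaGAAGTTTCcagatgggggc
Hspb1, next match: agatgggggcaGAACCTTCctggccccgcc
Neither motif was found in the windows of Dnajb1 and Bag3. The CCAAT box, read as CCAAT on either strand, was in the windows of Hspa1a, Hspa1b, Hsph1 and Dnajb1, against 33.8% of all windows. A match is a description of letters in a window, and none of these data measured binding.

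All 8 genes were detected in every library, and all 8 passed the filter of a mean of 1 FPKM over the 6 libraries. Per length they fell into 3 tiers. Hsp90aa1 averaged 245 FPKM and Hspa8 213 FPKM over the 6 libraries, and their ranges overlapped, with Hsp90aa1 above Hspa8 in 5 of 6 libraries. Dnajb1, Hsph1, Hspa1a and Hspa1b followed at 15.1, 13.3, 10.7 and 10.2 FPKM. Each of these ranges overlapped that of its neighbour in the order. Bag3 at 1.77 FPKM and Hspb1 at 1.40 FPKM were lowest and also overlapped in range, although Bag3 was above Hspb1 in 6 of 6 libraries. No gene of 1 tier overlapped a gene of the next. Hspa8 and Hsp90aa1 together made up 87.8% to 90.5% of the summed FPKM of the 8 genes.

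Myrf-kd and WT retina did not differ detectably in any of the 8 genes. Of the 8, 5 were higher and 3 lower in estimate in Myrf-kd, and their median log2 fold change was 0.07, against 0.00 over all 13674 genes tested, of which 51.0% had higher estimates. With edgeR (quasi-likelihood, Benjamini-Hochberg adjusted over all genes) 0 of 8 passed, where 0.0439% of all genes did. In the same edgeR fit 0 of 8 had an unadjusted p under 0.05, against 7.48% of all genes. DESeq2 and limma on log2(FPKM + 1) also called 0 of 8, with 1 (Hspa1a, unadjusted p = 0.0499 by DESeq2) and 0 at an unadjusted p under 0.05. In CPM the groups overlapped in 8 of 8 genes, where they were apart in 14.6% of all genes. In FPKM they were apart in 1 of 8, Hspa1a, where they were in 14.5% of all genes. The median size of the log2 fold change, whatever its sign, was 0.08 for the 8 genes and 0.11 for all genes.

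**Figure D1:**
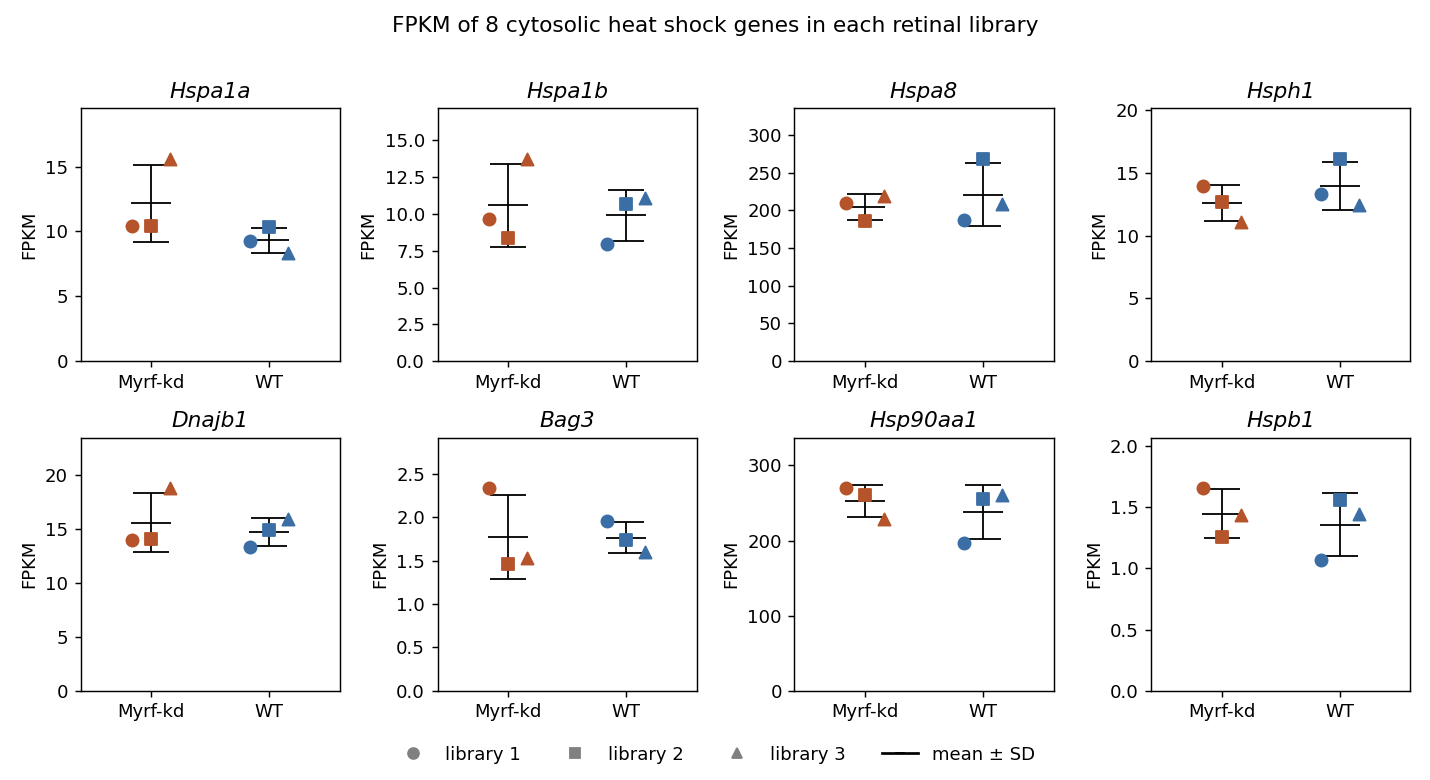
FPKM of each heat shock gene (linear axes from 0) in 3 Myrf-kd libraries (brown, left) and 3 WT libraries (blue, right), with circles, squares and triangles for libraries 1, 2 and 3 and black bars for mean ± SD. The groups overlap in 7 of 8 panels and are narrowly apart for Hspa1a (lowest Myrf-kd library 10.43, highest WT library 10.32 FPKM), and Myrf-kd 3 is the highest library for Hspa1a, Hspa1b and Dnajb1.

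Among the inducible HSP70 genes, Hspa1a had the largest estimate of the 8, and leaving out Myrf-kd 3 lowered it. Hspa1a was at 10.43, 10.44 and 15.59 FPKM in Myrf-kd 1, 2 and 3, against 9.259, 10.32 and 8.319 FPKM in WT 1, 2 and 3. Myrf-kd 3 was the highest, and the other Myrf-kd libraries lay just above WT 2. In CPM they lay just below it, at 36.05 and 35.49 CPM in Myrf-kd 1 and 2, against 36.38 CPM in WT 2. Mean levels were 12.15 ± 2.975 FPKM in Myrf-kd, against 9.30 ± 1.00 FPKM in WT (SD, n = 3 each). With edgeR the log2 fold change was 0.37 ± 0.18 SE, a ratio of 1.29 with a 95% interval from 0.9545 to 1.745 (edgeR adjusted p = 0.696). Without Myrf-kd 3 the log2 fold change was 0.15 (edgeR adjusted p = 0.781). Gm20481, an antisense gene that overlaps Hspa1a, was listed without signal in all 6 libraries.

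Hspa1b was at 9.62, 8.37 and 13.7 FPKM in Myrf-kd 1, 2 and 3, against 7.94, 10.7 and 11.1 FPKM in WT 1, 2 and 3. Again Myrf-kd 3 was the highest, while WT 3, the lowest library for Hspa1a, was second for Hspa1b. On average there were 10.6 ± 2.81 FPKM in Myrf-kd, against 9.91 ± 1.72 FPKM in WT (SD, n = 3 each), with a log2 fold change of 0.08 ± 0.22 SE and a 95% interval of the ratio from 0.734 to 1.51 (edgeR adjusted p = 0.940). The level of Hspa1a over that of Hspa1b was 1.083, 1.248 and 1.134 in Myrf-kd 1, 2 and 3, against 1.17, 0.967 and 0.749 in WT 1, 2 and 3.

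Summed, the pair had 67.5, 62.4 and 98.25 CPM in Myrf-kd 1, 2 and 3, against 57.4, 71.9 and 65.4 CPM in WT 1, 2 and 3. Myrf-kd 1 and Myrf-kd 2 lay inside the WT range, and Myrf-kd 3 above it. The log2 fold change of the sum was 0.23 ± 0.18 SE (edgeR adjusted p = 0.755), and without Myrf-kd 3 it was 0.00 (edgeR adjusted p = 0.999).

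Hspa8 (ENSMUSG00000015656, chromosome 9, 40800984 to 40810087, plus strand) encodes HSC70, which folds new proteins and uncoats clathrin vesicles in unstressed cells. It was at 209.5, 185.5 and 219.3 FPKM in Myrf-kd 1, 2 and 3, against 186.8, 268.4 and 208.2 FPKM in WT 1, 2 and 3. WT 2 was the highest, and WT 1 lay beside the lowest Myrf-kd library. The small nucleolar RNA genes Snord14c, Snord14d and Snord14e lie within Hspa8. Between the groups, the log2 fold change was −0.13 ± 0.15 SE, with a 95% interval of the ratio from 0.712 to 1.17 (edgeR adjusted p = 0.825). As a share of Hspa8 FPKM, the summed FPKM of Hspa1a and Hspa1b was 9.57%, 10.1% and 13.4% in Myrf-kd 1, 2 and 3, against 9.21%, 7.83% and 9.33% in WT 1, 2 and 3. This ratio was formed after the values were seen, and no test of it was run. The groups were apart in it by 0.24 percentage points at the nearest libraries.

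Of the partners of the HSP70 cycle, Dnajb1 was highest in the same library as the inducible pair, and Hsph1 was lowest there. Dnajb1 (ENSMUSG00000005483, chromosome 8, 83608193 to 83612653, plus strand) encodes the J-domain protein HSP40, which stimulates the HSP70 ATPase. It was at 14.0, 14.0 and 18.7 FPKM in Myrf-kd 1, 2 and 3, against 13.3, 14.9 and 15.9 FPKM in WT 1, 2 and 3. Myrf-kd 3 was the highest, and the other Myrf-kd libraries lay inside the WT range. The log2 fold change was 0.06 ± 0.14 SE, with a 95% interval of the ratio from 0.8317 to 1.315 (edgeR adjusted p = 0.916), and −0.09 without Myrf-kd 3.

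Hsph1 (ENSMUSG00000029657, chromosome 5, 149614287 to 149636376, minus strand) encodes HSP110, a nucleotide exchange factor of HSP70 and itself an HSF1 target. It was at 13.9, 12.7 and 11.1 FPKM in Myrf-kd 1, 2 and 3, against 13.3, 16.13 and 12.45 FPKM in WT 1, 2 and 3. Here Myrf-kd 3 was the lowest library and WT 2 the highest. With edgeR the log2 fold change was −0.17 ± 0.13 SE, with a 95% interval of the ratio from 0.719 to 1.10 (edgeR adjusted p = 0.750). Without WT 2 it was −0.040, and without Myrf-kd 3 −0.087.

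Bag3 (ENSMUSG00000030847, chromosome 7, 128523616 to 128546981, plus strand) encodes an exchange factor that ties HSP70 and small heat shock proteins to autophagy. It was at 2.33, 1.46 and 1.53 FPKM in Myrf-kd 1, 2 and 3, against 1.96, 1.733 and 1.602 FPKM in WT 1, 2 and 3. Myrf-kd 1 was the highest and Myrf-kd 2 the lowest, so the WT libraries lay inside the Myrf-kd range. Between the groups, the log2 fold change was −0.01 ± 0.22 SE (edgeR adjusted p = 0.991), from 66 to 112 fragments per library. A gene on the same strand that overlaps Bag3, 2610306O10Rik, was at most at 0.212 FPKM.

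Hsp90aa1 (ENSMUSG00000021270, chromosome 12, 110690605 to 110702728, minus strand) encodes the inducible form of HSP90, a chaperone of kinases and steroid receptors. It was at 269.4, 260.4 and 228.9 FPKM in Myrf-kd 1, 2 and 3, against 196.6, 255.5 and 261.0 FPKM in WT 1, 2 and 3. WT 1 was the lowest, followed by Myrf-kd 3, and the other libraries of both groups lay close together. The log2 fold change was 0.07 ± 0.13 SE, with a 95% interval of the ratio from 0.8454 to 1.303 (edgeR adjusted p = 0.903). Behind these values lay 14375 to 20570 fragments per library.

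Hspb1 (ENSMUSG00000004951, chromosome 5, 135887919 to 135889563, plus strand) encodes a small heat shock protein that holds unfolded chains without ATP. It was at 1.655, 1.255 and 1.434 FPKM in Myrf-kd 1, 2 and 3, against 1.07, 1.56 and 1.45 FPKM in WT 1, 2 and 3. Its highest library, Myrf-kd 1, and its lowest, WT 1, were in different groups, with the others mixed between them. With edgeR the log2 fold change was 0.08 ± 0.24 SE, with a 95% interval of the ratio from 0.713 to 1.57 (edgeR adjusted p = 0.942). Only 21 to 32 fragments per library lay behind these values.

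**Figure D2:**
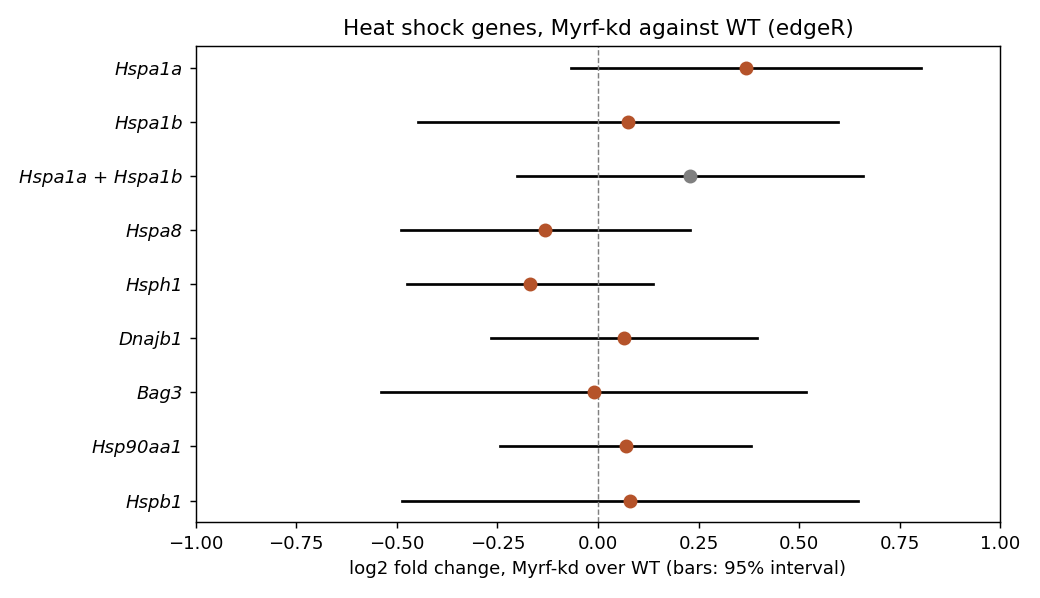
Log2 fold change of Myrf-kd over WT (x axis) for each heat shock gene (brown) and for the summed pair (grey), with 95% intervals from edgeR as black bars. All intervals include 0, and the estimate of Hspa1a, at 0.37, is the farthest from it.

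The intervals bound what was left undetected. A ratio of 2 lay outside the interval of each gene, and so did a ratio of 0.5. The highest upper bound was 1.745, for Hspa1a, and the lowest lower bound 0.688, for Bag3.

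The spread between libraries of 1 genotype was wider for these genes than for most. Each group holds libraries of both sexes, so this spread includes any difference between the sexes, which the fit did not model. Within groups, the SD of log2 CPM lay between 0.19 for Hsph1 and 0.33 for Hspa1b, above the median of 0.15 over all genes tested in 8 of 8. For Hspa1b, 83.9% of all genes tested had a smaller SD, and for Bag3 79.6%, Hspa1a 77.3% and Hspb1 76.0%. The abundant genes Hspa8 and Hsp90aa1 were at 71.0% and 64.9%, so the wide spread was not confined to genes with few fragments.

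Different libraries held the highest level of different genes. In Myrf-kd 3, Hspa1a was 0.56, Hspa1b 0.44 and Dnajb1 0.31 above its own mean over the 6 libraries on the log2 CPM scale. In the same library Hsph1 was 0.25 below its mean (−0.25), Bag3 at −0.19 and Hsp90aa1 at −0.10. Myrf-kd 3 thus held the highest level of 3 of the 8 genes and the lowest of 1, where 25.7% of all genes tested were highest and 25.2% lowest in that library. WT 2 was above the mean in 8 of 8 genes, though by only 0.003 for Hspa1a, 0.014 for Dnajb1 and 0.020 for Bag3. It held the highest Hspa8 (0.37 above the mean) and Hsph1 (0.32 above), where 17.5% of all genes were highest in it. Myrf-kd 1 held the highest Bag3, Hsp90aa1 and Hspb1, 3 of the 8, where 11.81% of all genes were highest in it. WT 1 held the lowest level of 4 of the 8, Hspa1b, Dnajb1, Hsp90aa1 and Hspb1, where 12.02% of all genes were lowest in it. The median deviation of the 8 genes was 0.04, −0.15 and 0.05 in Myrf-kd 1, 2 and 3, against −0.19, 0.10 and 0.03 in WT 1, 2 and 3, while that of all genes lay between 0.00 and 0.01.

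**Figure D3:**
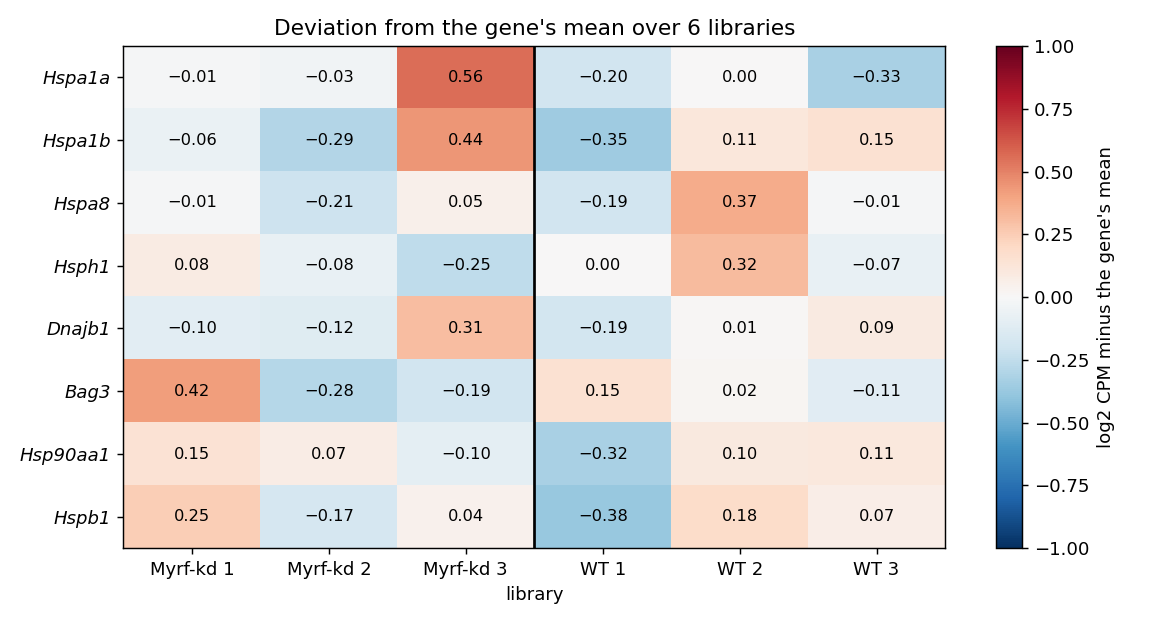
Log2 CPM of each heat shock gene (rows) in each library (columns, Myrf-kd left of the line, WT right) minus the gene's mean over the 6 libraries, as colour and printed value. Hspa1a, Hspa1b and Dnajb1 are high in Myrf-kd 3 at 0.56, 0.44 and 0.31, while Hspa8 and Hsph1 are high in WT 2 at 0.37 and 0.32.

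The library with the highest inducible HSP70 levels differed in other ways. The summed lens markers were at 1.71, 1.05 and 51.9 CPM in Myrf-kd 1, 2 and 3, against 17.6, 12.65 and 19.2 CPM in WT 1, 2 and 3. Of the 11 lens genes, 8 were at 0 in Myrf-kd 1 and 6 in Myrf-kd 2, the beta-crystallin gene Crybb2 in both, and 0 of them in Myrf-kd 3. In WT 1, 2 and 3, 0, 2 and 3 of the 11 were at 0. The part of the lens RNA in the HSP70 levels was not tested. WT 3, the other female library, had 65.4 CPM of the summed pair, inside the range of the male libraries (57.4 to 71.9 CPM). The part of sex in the HSP70 levels was not tested. Markers of the cornea and surface epithelium summed to 1.40, 6.44 and 4.935 CPM in Myrf-kd 1, 2 and 3, against 15.5, 25.6 and 16.2 CPM in WT 1, 2 and 3, and 0 to 2 of the 7 were at 0 in a library. This difference lay between the groups and was not particular to Myrf-kd 3. Of the 3 tested genes of this list the groups were apart, lower in Myrf-kd, in 3, where 7.50% of all genes were, and 0 passed (edgeR). The Mueller glia and astrocyte markers summed to between 3685 and 4075 CPM in Myrf-kd and between 3724 and 4144 CPM in WT, with 0 of 7 at 0. Markers of the retinal pigment epithelium summed to between 381.5 and 411.9 CPM in Myrf-kd, below the range of 420.5 to 510.8 CPM in WT, with 0 of 7 at 0. The gene Rlbp1 is in both this list and that of the glia. Of the 6 tested genes of the pigment epithelium list the groups were apart, lower in Myrf-kd, in 2, where 7.50% of all genes were. The part of these cell types in the levels of the 8 genes was not tested.

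The pattern of the summed pair over the 6 libraries was set against that of 13666 other genes, by the root mean square difference of log2 CPM after centring each gene. Nearest was Pafah1b3, a subunit gene of an enzyme that breaks down platelet-activating factor, with a difference of 0.03. It had 12.3, 11.2 and 17.6 CPM in Myrf-kd 1, 2 and 3, against 10.8, 13.3 and 12.3 CPM in WT 1, 2 and 3. The next were Platr17, the guidance gene Rgma, the phosphofructokinase gene Pfkl and Gm17491, with differences of 0.04 to 0.06. Of the other heat shock genes, Dnajb1 was the nearest at 0.12, with 0.937% of the 13666 genes nearer, while Bag3 was at 0.39 with 78.2% nearer and Hsph1 at 0.35 with 71.1% nearer. These are descriptions over 6 libraries. The pair, Dnajb1 and the nearest genes named share Myrf-kd 3 as their highest library, while Bag3 was highest in Myrf-kd 1 and Hsph1 in WT 2.

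Other genes of the chaperone system were described by lists, and 0 of their 86 tested genes passed over all genes (edgeR), with 7 at an unadjusted p under 0.05, a share near the 7.48% of all genes. Of 6 heat shock factors and regulators 4 were tested, 1 higher and 3 lower in estimate, with a median log2 fold change of −0.08, against 0.00 over all genes, and −0.17 without Myrf-kd 3. Hsf1, which drives the response, was at 28.8 ± 1.79 CPM in Myrf-kd, against 31.7 ± 4.56 CPM in WT (SD, n = 3 each; edgeR adjusted p = 0.788). Hsf4, the factor of lens development, was at 5.05 ± 0.564 CPM in Myrf-kd, against 5.94 ± 0.284 CPM in WT (edgeR adjusted p = 0.720).

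Of the 8 other genes of the HSP70 and HSP110 families, 6 had higher and 2 lower estimates in Myrf-kd (7 and 1 with upper-quartile scaling), with a median log2 fold change of 0.14. Without Myrf-kd 3, 7 were higher and 1 lower, with a median of 0.11. That library held the highest CPM of 5 of the 8 and the lowest of 2, where 25.7% of all genes were highest and 25.2% lowest in it. Hspa13, which encodes an HSP70-like ATPase of the microsomes rather than the cytosol, had 37.2, 37.3 and 42.6 CPM in Myrf-kd 1, 2 and 3, against 31.1, 22.5 and 24.6 CPM in WT 1, 2 and 3. Hspa1l, the neighbour of Hspa1a known for its expression in testis, had 11.71, 10.75 and 11.98 CPM in Myrf-kd 1, 2 and 3, against 10.2, 8.47 and 8.24 CPM in WT 1, 2 and 3. In both genes all Myrf-kd libraries lay above all WT libraries, yet neither passed (edgeR adjusted p = 0.666). The log2 fold changes were 0.58 ± 0.14 SE for Hspa13, 0.36 ± 0.13 SE for Hspa1l and 0.14 ± 0.06 SE for Hspa4l, an HSP110 gene. The groups were apart, higher in Myrf-kd, in 5 of the 8, where 7.13% of all genes were. Besides these 3 they are Hspa2 and the HSP110 gene Hspa4, named after their values were seen, with log2 fold changes of 0.26 and 0.11. Coding sequence of Hspa1l was 83.3% identical to that of Hspa1a, and reads misassigned between them were not tested.

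Among the 13 genes of constitutive HSP90 and its co-chaperones, 8 were higher and 5 lower in estimate, and the median log2 fold change was 0.01. Without Myrf-kd 3, 4 were higher and 9 lower. That library held the highest CPM of 7 of the 13 and the lowest of 2, where 25.7% of all genes were highest and 25.2% lowest in it. Cdc37l1, related to the kinase co-chaperone gene Cdc37, was at 151 ± 3.24 CPM in Myrf-kd, against 132.5 ± 16.7 CPM in WT (edgeR adjusted p = 0.697). Unc45a went the other way, at 105 ± 16.7 CPM in Myrf-kd, against 123 ± 10.1 CPM in WT (edgeR adjusted p = 0.701). Chordc1, an HSP90 partner gene that responds to heat, was at 43.8 ± 5.402 CPM in Myrf-kd, against 39.15 ± 2.965 CPM in WT (edgeR adjusted p = 0.739). Of 16 J-domain and nucleotide exchange partners of HSP70, 3 had higher and 13 lower estimates (5 and 11 with upper-quartile scaling), with a median of −0.04. Dnajb6, which keeps polyglutamine proteins from aggregating, was at 108 ± 7.595 CPM in Myrf-kd, against 121 ± 10.25 CPM in WT (edgeR adjusted p = 0.701).

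Of 9 other small heat shock genes 5 were tested, 4 higher and 1 lower in estimate, with a median log2 fold change of 0.22 that became 0.01 without Myrf-kd 3. The median of 0.22 is the value of the crystallin gene Cryaa, named after its values were seen. Cryaa had 0.234, 0 and 18.6 CPM in Myrf-kd 1, 2 and 3, against 5.41, 3.69 and 7.09 CPM in WT 1, 2 and 3. Its 95% interval of the log2 fold change ran from −3.67 to 4.11. Cryab, the small heat shock gene of lens and glia, was at 22.05 ± 6.80 CPM in Myrf-kd, against 18.1 ± 3.50 CPM in WT (edgeR adjusted p = 0.777). Hspb6 was at 54.4 ± 23.15 CPM in Myrf-kd, against 38.0 ± 14.9 CPM in WT (edgeR adjusted p = 0.750). The CCT chaperonin, which folds actin and tubulin, had 1 of 8 subunit genes higher and 7 lower in estimate, with a median of −0.06.

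Chaperones of other compartments were measured for contrast. Mitochondrial chaperones had 5 higher and 3 lower estimates, with a median of 0.04 that became 0.01 without Myrf-kd 3. That library held the highest CPM of 5 of the 8 and the lowest of 1, where 25.7% of all genes were highest and 25.2% lowest in it. Hspa9, the mitochondrial HSP70 gene, was at 283 ± 22.9 CPM in Myrf-kd, against 322 ± 9.73 CPM in WT (edgeR adjusted p = 0.666). The groups were apart in 1 of the 8, Hspa9, lower in Myrf-kd, where 7.50% of all genes were. ER chaperones had 2 higher and 10 lower estimates of 12, with a median of −0.08 that became −0.03 without Myrf-kd 3. That library held the lowest CPM of 9 of the 12 and the highest of 1, where 25.2% of all genes were lowest and 25.7% highest in it. The HSP70 gene of the ER, Hspa5, was at 249.5 ± 17.7 CPM in Myrf-kd, against 298 ± 21.0 CPM in WT (edgeR adjusted p = 0.666). Of the 12 ER genes the groups were apart in 1, Hspa5, lower in Myrf-kd, where 7.50% of all genes were.

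Immediate early genes, another group that rises within minutes of tissue handling, had 7 of 12 tested genes higher and 5 lower in estimate. Without Myrf-kd 3, 4 were higher and 8 lower, and the median log2 fold change of 0.09 became −0.10. The AP-1 genes Jun and Jund were at 61.95 ± 16.8 and 30.2 ± 2.22 CPM in Myrf-kd, against 103.5 ± 12.2 and 38.4 ± 2.895 CPM in WT (edgeR adjusted p = 0.666 for both). In 3 of the 12 the groups were apart, lower in Myrf-kd, where 7.50% of all genes were. The third is the stress factor gene Atf3, named after its values were seen, at 34.5, 27.7 and 7.32 CPM in Myrf-kd 1, 2 and 3, against 46.5, 40.6 and 44.7 CPM in WT 1, 2 and 3. Myrf-kd 3 held the lowest CPM of 3 of the 12, Jun, Jund and Atf3, and the highest of 6, Fos, Egr1, Nr4a1, Junb, Ier2 and Ier3, all but Jun and Jund named after their values were seen. Of all genes tested, 25.2% were lowest and 25.7% highest in that library. Fos had 18.3, 19.0 and 37.2 CPM in Myrf-kd 1, 2 and 3, against 26.2, 12.9 and 9.09 CPM in WT 1, 2 and 3.

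**Figure D4:**
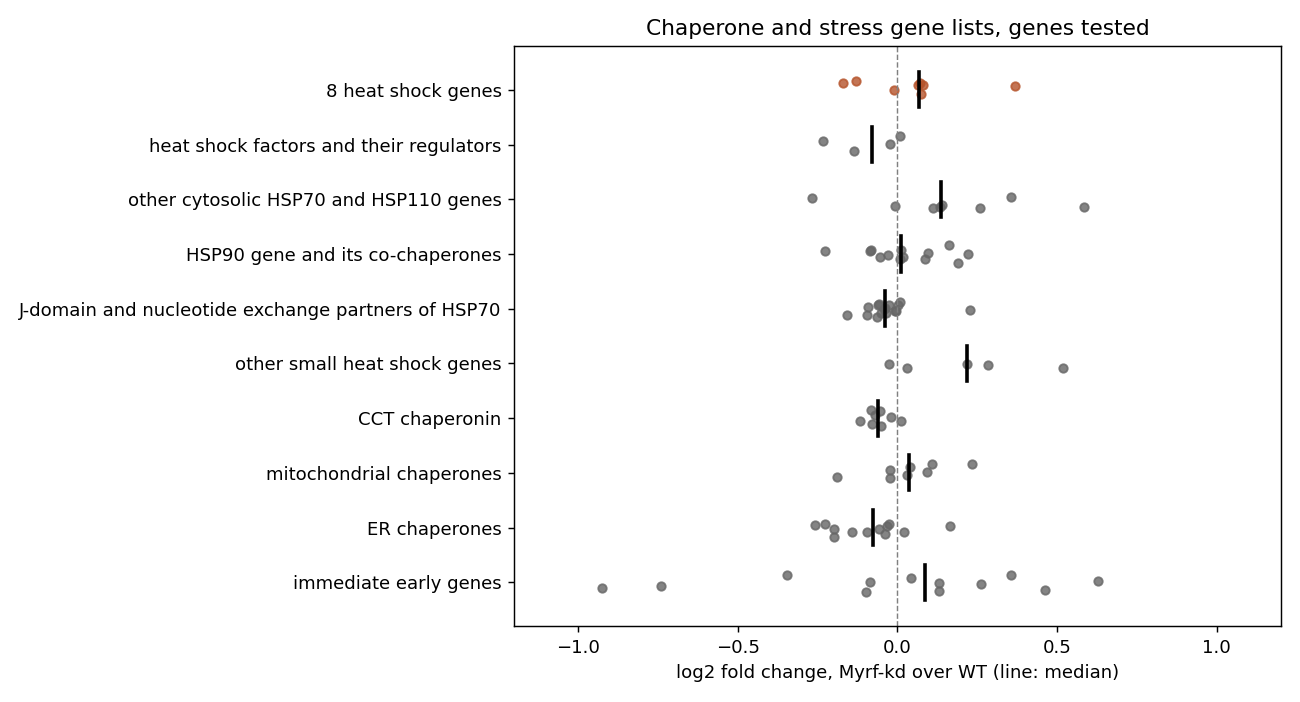
Log2 fold change of Myrf-kd over WT (x axis) of every tested gene (points) in the 8 heat shock genes (brown, top) and 9 lists of other chaperone and stress genes (grey), with the median of each as a black line. The median is 0.07 for the 8 heat shock genes, and the list medians run from −0.08 for the heat shock factors to 0.22 for other small heat shock genes. That highest median is the value of Cryaa, which has a wide interval.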

How the data were processed

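The members and lists were chosen with earlier results of these data known. Tools listed by the submitters' processing notes are Bowtie 0.12.2, HISAT2 2.0 and StringTie 1.3.0, and GRCm38 is the build, without saying what each tool did. The strand setting was not given in the sources used here. The FPKM values were deposited by the authors, with 0.0001 for genes without signal. The estimated counts deposited by the authors are whole numbers, so rounding changed none. For single-transcript genes above 200 units they followed FPKM times length within 1% in 100% of the genes. More values were at 4 units (7644) than at 1 (4210), and 4 units were taken as 1 fragment.

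Genes with a mean of at least 1 FPKM, with Myrf added, were tested by edgeR 4.0.16 (TMM factors, quasi-likelihood test, two-sided, genotype as the only term, all 6 libraries), with Benjamini-Hochberg adjustment over 13674 genes and a threshold of 0.05. The biological coefficient of variation was 20.3%. CPM are deposited counts scaled to a common, TMM-adjusted total. The unit named in the planned design was counts, and the count test was kept for these estimated counts. The SE is the size of the log2 fold change over the root of F. Alternatives were DESeq2 1.42.0, limma 3.58.1 on log2(FPKM + 1) or with a pseudocount of 0.1, other scalings and filters, a replicate block and the omission of libraries. The fits were tested on counts simulated from the levels and spread of the tested genes. That simulation held no effect of sex or of lens RNA, so it does not cover these. The genes named are the 8, Myrf, up to 3 genes per list by the smallest p and the 5 nearest patterns, of which those with a bearing on the 8 are given values. All 55450 identifiers matched GENCODE M21 on GRCm38, and the 8 genes had the same coordinates in the deposited table and in GENCODE. Promoters of 6 of the 8 genes were in the RefSeq table. Every pair of libraries differed beyond sampling noise (lowest chi-square over degrees of freedom 15.4).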

Additional observations from a re-analysis of the deposited data

How the results depend on the processing

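The count of 0 heat shock genes past the threshold was the same in all 16 alternatives, and in 112 of the 126 values of single genes the direction was as in the result given above. All 14 changes of direction arose where libraries were left out, and the other alternatives refit the same 6 libraries. With 21 to 32 fragments, depth limits Hspb1 most. The count of genes past the threshold, 6 of all genes tested, was 2 at a mean FPKM of at least 5, 53 by DESeq2 and 22 without both libraries numbered 3. It ran from 9 to 16 when 1 library was left out. With the replicate number as a block it was 0 (703 at an unadjusted p under 0.05 by edgeR). Same-numbered libraries correlated in their deviations from the group means at −0.04, 0.08 and 0.14 for numbers 1, 2 and 3, so the numbers were not taken to pair the samples. Leaving out a library in turn changed the sign of 6 genes: the log2 fold change ran from −0.16 to 0.22 for Hspa1b, −0.092 to 0.14 for Dnajb1, −0.059 to 0.14 for Hsp90aa1, −0.074 to 0.195 for Hspb1, −0.25 to 0.045 for Hspa8, and −0.26 to 0.12 for Bag3. With no change of sign, it ran from 0.146 to 0.472 for Hspa1a, −0.25 to −0.040 for Hsph1, and 0.00 to 0.35 for the summed pair. Without both libraries numbered 3, it was 0.072 for Hspa1a, −0.070 for Hspa1b, 0.0067 for the summed pair, −0.031 for Dnajb1 and 0.019 for Bag3. The adjusted p lay between 0.549 and 0.923 for Hspa1a over its alternatives. At a mean FPKM of at least 5, Hspb1 and Bag3 were not tested. The cause of these moves was not tested.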
